A study of Mus musculus with 12 samples.

Results

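The 2095 AGO2 peaks described here lie in 3' UTRs and were listed in mouse cerebellum at postnatal day 15 (P15) but not at postnatal day 7 (P7). They were chosen by comparing the series' 2 deposited peak lists: a P15 peak was kept where it overlapped a 3' UTR of a protein-coding transcript (GENCODE M21, build mm10) and shared no base with a P7 peak on the same strand. They make up 2095 of the 2580 3' UTR peaks of the P15 list and 2095 of the 10057 peaks of both lists, and they fall in 1227 genes. The other 485 P15 3' UTR peaks overlapped a P7 peak and are called shared here, and 541 3' UTR peaks were listed only at P7.

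All groups came from homozygous conditional Spy3-Ago2 mice, with the genotype given as WT in the labels. The pups received, by intracerebroventricular injection at P0, an adeno-associated virus carrying Cre under L7, a promoter active in Purkinje cells (PCs), the large neurons through which the cerebellar cortex sends its output. Whole cerebella were collected at P7 or P15. Tagged AGO2 was captured from them through SpyCatcher3 on a resin, and RNA running between 70 and 150 kDa was made into miRNA and target libraries. The series has 12 libraries, with 2 miRNA, 2 target and 2 input libraries at each age, and nothing in the labels says which or how many animals gave each. Input libraries were not analysed here.

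Each list gives the place and strand of its peaks, with a score of 0 throughout, so neither the height of a peak nor the depth of the target libraries is known. A peak listed only at P15 may therefore be absent at P7 or below the listing threshold there. More transcript, more AGO2 on it, more cells that carry the tag and deeper sequencing cannot be told apart. Another list of 1624 peaks was deposited with P15 target replicate 2 under the same name as the P15 list. The sources used here do not say how the 2 were made to differ. It is called the replicate 2 list below, and overlap with it does not measure replication.

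AGO2 is the protein that carries miRNAs to messenger RNAs. A miRNA pairs through its seed, bases 2 to 8, mostly with sites in 3' UTRs, and the complex lowers translation and shortens the life of the transcript. Pumilio proteins are RNA-binding proteins that also repress messenger RNAs through 3' UTRs, and they recognise an 8-nt element that reads TGTANATA in DNA letters, where N is any base. Between P7 and P15 PCs grow their dendritic trees and receive most of their synapses.

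Of all words and motifs tested below, TGTANATA had the smallest p in these peaks. The lines that follow show it in capitals, 5' to 3' on the transcript strand, inside windows of 30 nt taken from GENCODE M21 transcripts with their mm10 coordinates. They are the peaks with the element in the genes that hold the most P15-only 3' UTR peaks.
Rims3, chr4:120891564-120891593, plus strand: tcaccacccccTGTACATAgtctccatgtc
Bsn, chr9:108096616-108096645, minus strand: tcctcccttgcTGTAAATAatgtgtcatca
Rora, chr9:69383140-69383169, plus strand: agtgcaatatcTGTACATAgagcacttgcg
Rora, chr9:69386351-69386380, plus strand: aactatatattTGTATATAtatacatatat
Rora, chr9:69388027-69388056, plus strand: ttgattcatttTGTAAATAcaagctgtaaa
Crtc1, chr8:70383900-70383929, minus strand: accttgcaatgTGTACATAgaccctctgcc
Dab2ip, chr2:35730175-35730204, plus strand: cacccaagggaTGTACATAgtcctttagtc
Kcna2, chr3:107106864-107106893, plus strand: tgtgggttcaaTGTATATAaatatatatca
Rims3 and Bsn encode proteins of the presynaptic release site. Rora is the nuclear receptor whose loss causes the staggerer cerebellar phenotype, Crtc1 is a CREB coactivator, Dab2ip a regulator of Ras-family GTPases, and Kcna2 a voltage-gated potassium channel of axons. In the Rims3 peak the element began at base 65 of 82, in the Bsn peak at base 9 of 104, and in the 3 Rora peaks at bases 3, 4 and 2 of 48, 49 and 59. Of these 8 peaks, the last of the 3 in Rora overlapped the replicate 2 list and the others did not.

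TGTANATA lay in 494 of the 2082 P15-only peaks whose sequence could be read as 1 run of a transcript, which is 23.7% (95% exact binomial interval 21.9 to 25.6). The other 13 peaks could not be read that way. For scale, 1.02% of 578561 windows of 53 nt, the median width of the peaks, tiled over the longest 3' UTR of every protein-coding gene held it. Each peak was then set against windows of its own width just upstream and just downstream in the same 3' UTR, which 1608 peaks had on both sides. The element was in 380 of those peaks, in 27 of their upstream windows and in 25 of their downstream windows (exact McNemar test against each side, the larger p taken, Benjamini-Hochberg adjusted over 13 motifs, adjusted p = 5.11e-85). It was the 1 motif called of 13, or 7.69%. The same test over 1 peak per gene, the widest, gave 277 of 950 peaks against 17 and 18 windows (adjusted p = 7.61e-64). The test compares peaks with their own surroundings within 1 list, not P15 with P7.

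**Figure D1:**
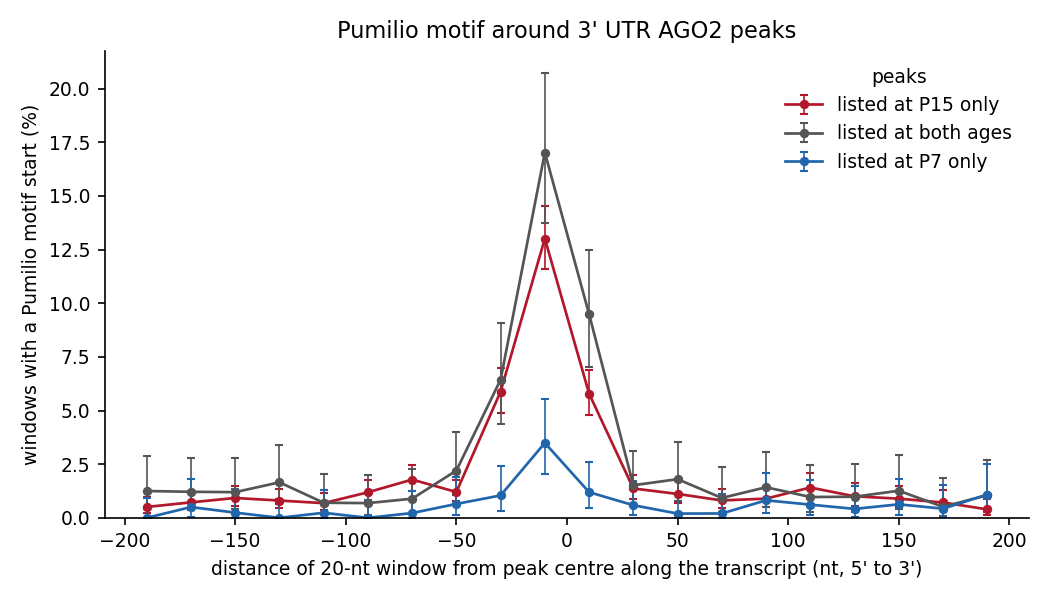
Share of 20-nt windows in which a Pumilio element starts (y axis, percent) by distance from the peak centre along the transcript (x axis, nt, 5' to 3'), for 3' UTR peaks listed at P15 only, at both ages and at P7 only; bars are 95% exact binomial intervals. In P15-only peaks the share is 13.0% just upstream of the centre, 5.88% and 5.79% in the windows on either side of that one, and 1.37% in the window centred 30 nt downstream.

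The element sat near the middle of the peaks and towards their 5' side. In P15-only peaks the window just upstream of the centre held a start of the element in 266 of 2044 cases (13.0%, 11.6 to 14.6). The windows 30 nt upstream and 10 nt downstream of the centre held one in 119 of 2023 (5.88%) and 117 of 2021 (5.79%). At 50 nt to either side the shares were 1.20% and 1.11%. Over 535 matches the centre of the element lay at a median of 0.351 of the peak's width from its 5' end, with quartiles of 0.200 and 0.577. The same off-centre place was seen in the shared peaks, with a median of 0.382 over 171 matches, and in the P7-only peaks, with 0.386 over 25.

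All 4 letters occurred at the free position, and they were not used evenly. TGTAAATA made up 224 of the 535 matches (41.9%), TGTATATA 169 (31.6%), TGTACATA 125 (23.4%) and TGTAGATA 17 (3.18%). The order was the same in the shared peaks, where A, T, C and G at this position had 84, 43, 39 and 5 of 171 matches. The 4-letter core TGTA, which every copy of the element holds, was in 749 of 1588 P15-only peaks that lacked the whole element (47.2%, 44.7 to 49.7), beside 49.1% of such shared and 19.2% of such P7-only peaks, with no test. The share of TGTA in flanks or tiled windows is not reported here, so these shares give no excess over the surroundings. P7-only peaks were also richer in G and C, as given below. The form TGTANAT without the final A was in 171 of the 1588 (10.8%), beside 12.0% of such shared and 2.00% of such P7-only peaks, with no test. More than 1 copy of the element was found in 36 peaks.

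The element was also present in the other 3' UTR peaks, at different shares. It was in 154 of 480 shared peaks (32.1%, 27.9 to 36.5) and in 24 of 525 P7-only peaks (4.57%, 2.95 to 6.73). Against their own flanks it was in 118 of 382 shared peaks and 5 and 11 windows (exact McNemar test, adjusted p = 3.49e-23), and in 23 of 428 P7-only peaks and 4 and 3 windows (adjusted p = 0.00404). The differences in share between the 3 sets were not tested, since each list is a single set of peaks. P7-only peaks also lay in sequence richer in G and C, with a median GC of 54.0% against 42.5% in P15-only and 41.7% in shared peaks, and the part of base composition in the difference was not tested.

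The share lay between 19.5% and 27.7% when P15-only peaks were split by width, by place or by overlap with the replicate 2 list. It was 19.5% in 517 P15-only peaks of up to 40 nt, 26.2% in 1168 of 41 to 80 nt and 21.9% in 397 wider ones. It was 23.0% in the part of the 3' UTR nearer the coding sequence and 24.4% in the part nearer the transcript end. In the 159 P15-only peaks that overlapped the replicate 2 list the element was in 44 (27.7%, 20.9 to 35.3), and in the 1923 that did not it was in 450 (23.4%, 21.5 to 25.4). Of 245 readable 3' UTR peaks of the replicate 2 list without P7 overlap, 39 held it (15.9%, 11.6 to 21.1). Of these 39, 38 were among the 163 peaks that also overlapped the P15 list, and 1 was among the 82 that overlapped neither list of the series.

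The genes with P15-only peaks hold more copies of the element than the peaks cover. Their longest 3' UTRs contained 1107 copies, of which 527 (47.6%, 44.6 to 50.6) lay inside P15-only peaks, 100 (9.03%) inside shared peaks, 6 (0.542%) inside P7-only peaks and 474 (42.8%) in none of the 3. At least 1 copy was present in 662 of the 1227 longest 3' UTRs (54.0%) against 4884 of 21685 over all protein-coding genes (22.5%). These 3' UTRs were also longer, with a median of 1951 nt against 920 nt, and the part of length in this difference was not tested. Peaks with the element were spread over 430 of the 1227 genes. The gene share of 54.0% thus counts in part the same matches as the peaks and is not separate support.

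A few genes carried several such peaks. Kcna2 had 8 P15-only peaks, 5 of them with the element, and no other peak at either age. The remaining 4 lay at chr3:107107111-107107159, chr3:107112261-107112317, chr3:107114800-107114843 and chr3:107114886-107114985, and the third of the 5 along the transcript held 2 copies. In Rora 3 of 9 peaks held it, and in En2, a homeobox gene of the hindbrain, 2 of 6. Lnpep, a membrane aminopeptidase named here after its values were seen, had it in all 6 of its P15-only peaks, within a 3' UTR of 8342 nt. A pair of its sites shows that the letter at the free position can differ within 1 transcript.
Lnpep, chr17:17523900-17523929, minus strand: ttgctggaattTGTAGATAcataatgcaac
Lnpep, chr17:17528351-17528380, minus strand: aacagtgtctgTGTACATAaaaagggaatc
The glial glutamate transporter Slc1a2 had the element in 3 of 3 P15-only peaks, and Kit, a receptor tyrosine kinase that marks molecular layer interneurons, in 2 of 2. The other 4 glial marker genes with P15-only peaks had it in 0, and the 3 oligodendrocyte marker genes in 0 of 5 peaks. Gabra6, the GABA receptor subunit of granule cells, had it in 2 of 4, and Cntn2, an adhesion molecule of granule cells, in 0 of 5.

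A search over all words of 6 nt led to the same letters. Of 4094 words of 6 nt, 44 (1.07%) were called higher in P15-only peaks than in both flanks and 2 (0.0489%) lower, with 138 at an unadjusted p under 0.05. The word TGTATA was in 279 peaks against 43 upstream and 44 downstream windows of 1608 (exact McNemar test, adjusted p = 3.95e-44). The word TGTAAA followed with 306 peaks against 61 and 63, then GTAAAT with 228 against 35 and 43, and TGTACA with 258 against 41 and 61. The other 6 of the 10 words with the smallest p were GTATAT in 202 peaks, TATATA in 224, TAAATA in 237, GTACAT in 138, TACATA in 139 and ATATAT in 158. Of the 12 words that fit inside the element, 9 were called, and 25 of the 44 called words held TGTA.

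A further 13 of the words called higher neither held TGTA nor fit inside the element, and the 2 lower ones were rich in T. Among the 13 were TATATT in 122 peaks against 54 and 55 windows, and GTACAG in 103 against 19 and 37, both named after their values were seen. TGTTTT was in 47 peaks against 103 and 98 windows (adjusted p = 0.00145), and TCTTTT in 38 against 77 and 75 (adjusted p = 0.0304). In the 382 shared peaks 15 words were called, all higher, and 9 of them fit inside the element. In the 428 P7-only peaks the same exact McNemar test called 0 of 4033 words, with 22 at an unadjusted p under 0.05.

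**Figure D2:**
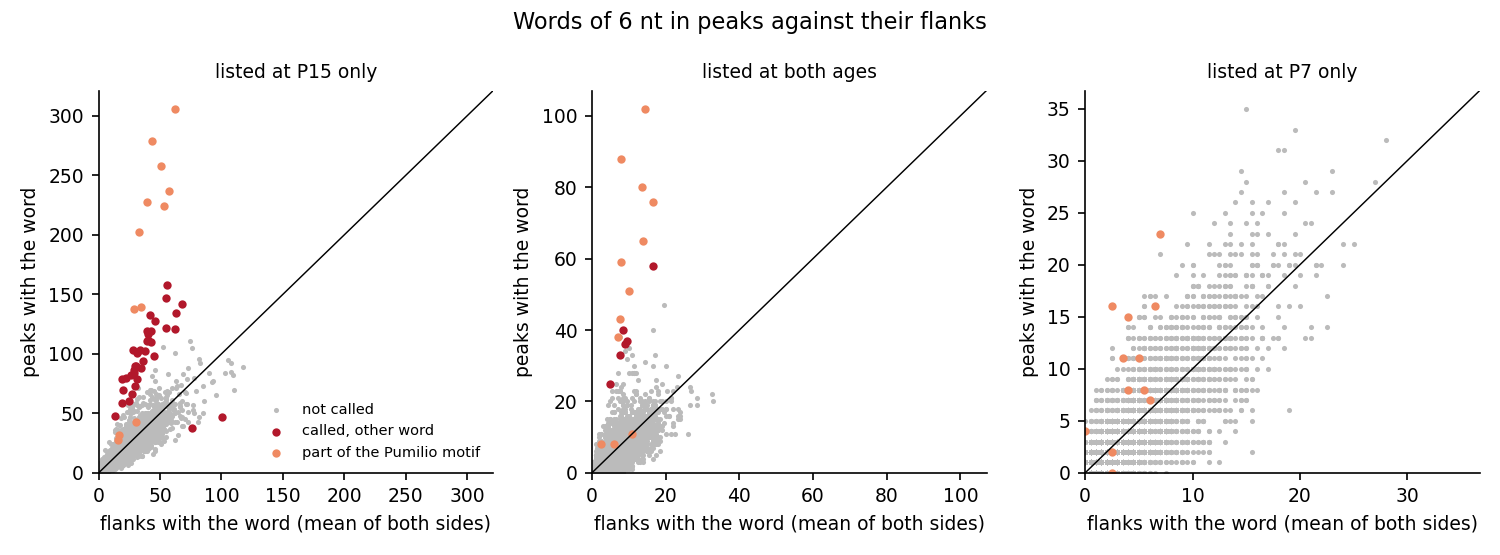
Number of peaks (y axis) and mean number of the upstream and downstream flanks (x axis) that hold each word of 6 nt, for 3' UTR peaks listed at P15 only, at both ages and at P7 only; the line marks equality and each panel has its own scale. In the P15-only panel the words of the Pumilio element reach 306 peaks at 62 flanks, and the 2 called words below the line are the T-rich ones with 47 and 38 peaks.

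The other 12 motifs searched did not pass the test. They were searched on the transcript strand, and copies of one may overlap another, as where AATAAA starts inside a copy of TGTAAATA. The canonical polyadenylation signal AATAAA was in 96 of 1608 peaks, 50 upstream and 113 downstream windows, so the peaks lay between the sides, and it was in 4.13% of the tiled windows. Against the upstream side alone it would be called (adjusted p = 0.0005). Its variant ATTAAA was in 51 peaks against 46 and 57 windows. The AU-rich pentamer ATTTA, an element of unstable messenger RNAs, was in 143 peaks against 151 and 148 windows, and the heptamer TATTTAT in 36 against 21 and 26. TGCATG, bound by RBFOX proteins, was in 43 peaks against 34 and 49, and ACTAAC, the core of the QKI element, in 14 against 10 and 14. Of simple repeats, TTTTTT was in 82 peaks against 104 and 114 windows, and CTCTCT in 42 against 56 and 62. TGTGTG was in 68 against 54 and 54, CCTCCC in 68 against 79 and 62, and GGAGGA in 50 against 40 and 30. The adjusted p of each of these 12 was 0.628 or above in the exact McNemar test. For motifs that lay between their flanks, such as AATAAA, the p was set by the rule on sides and not by the counts.

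The start of the 3' sequencing adapter, TGGAAT, was searched as a check on library making. It was in 32 of 1608 peaks, in 18 upstream and in 51 downstream windows, and in 1.72% of the tiled windows. When each peak was extended by 10 nt on both sides, it was in 66 of 1483 extended peaks against 30 and 37 windows (exact McNemar test, adjusted p = 0.0330). The counts of 32 and 66 come from sets of different size and windows of different width. Downstream windows held it more often than upstream ones in the other sets too, with 25 against 11 beside 382 shared peaks and 19 against 1 beside 428 P7-only peaks. The part of the adapter start in the other counts was not tested.

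**Figure D3:**
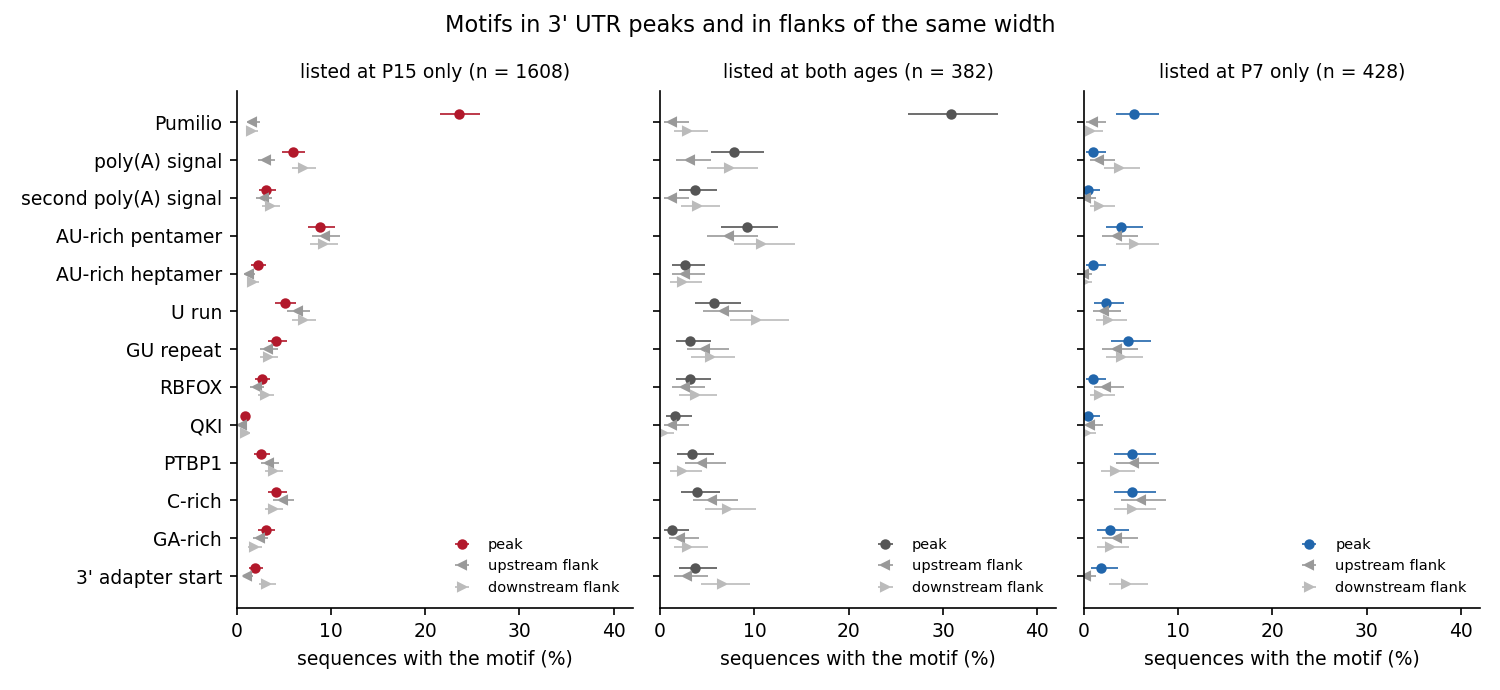
Share of peaks, upstream flanks and downstream flanks (x axis, percent, with 95% exact binomial intervals) that hold each of 13 motifs, for 3' UTR peaks with both flanks listed at P15 only (1608), at both ages (382) and at P7 only (428). The Pumilio element stands at 23.6% of P15-only peaks against 1.68% and 1.55% of their flanks, and no other motif of that panel passes 10%.

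Sites for the loaded miRNAs were counted in the same windows. The mature sequences of the 3 miRNAs whose sites are shown next, from RefSeq (table of build GRCm38.p6, matched by miRNA name), have the seed in capitals.
miR-29c-3p: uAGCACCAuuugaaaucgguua
miR-125b-5p: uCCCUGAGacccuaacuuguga
miR-30c-5p: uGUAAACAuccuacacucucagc
The 2 sites that follow lie in P15-only peaks of Rora, for miR-29c-3p and miR-125b-5p, and the last lies in a peak of Rgs8, a regulator of G-protein signalling, for miR-30c-5p. Capitals mark the 8-nt match, which is the reverse complement of bases 2 to 8 followed by A.
Rora, chr9:69386241-69386270, plus strand: tttctgatgtgTGGTGCTAgataagttact
Rora, chr9:69383174-69383203, plus strand: tactttgatccCTCAGGGAaaaacacatat
Rgs8, chr1:153694834-153694863, plus strand: attttaaacatTGTTTACAtatgaaatgtg
The Rora peak with the miR-125b-5p match is also the one with the element in the third sequence of the opening set, so both lie within 48 nt.

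Seed matches were counted in the P15-only peaks and beside them. Families were formed from miRNAs that share bases 2 to 8, and the 55 with at least 1000 CPM (a count as a share of its library's total, on the usual CPM scale) at either age were searched as 7-nt matches. The exact McNemar test, under the same rule on sides, called 0 of the 55 (0%), and 0 had an unadjusted p under 0.05. Single families had a match in 0 to 22 of the 1608 peaks. With so few matches the test could call only a large excess, so the lack of calls does not show that sites are not in excess. A match to any of the 55 was in 367 of 1608 peaks (22.8%), in 356 upstream (22.1%, 20.1 to 24.3) and in 359 downstream windows (22.3%), beside 19.3% of the tiled windows. No test was made of the shares over all 55. The families cover the miRNAs with a RefSeq mature sequence in the table used, 1679 of the 1978 counted, which took 61.1 to 65.3% of the counts of a library. Sites of miR-124-3p, the most counted miRNA at both ages, were not analysed here.

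The miR-29 family rose between the ages, and its matches were no more frequent in these peaks than in either flank. Its levels, 50846 and 63562 CPM at P7 and 154749 and 193473 CPM at P15, did not overlap between the ages. Its 3 members were among the 5 miRNAs called of 159 (3.14%) by edgeR's quasi-likelihood test of P15 against P7, and all 3 were higher at P15, by 1.82 to 2.65 on the log2 scale (edgeR, adjusted p from 0.000538 to 0.00285). The size depends on the scaling, and with library totals in place of TMM factors the same changes were 1.16 to 1.99. The P7 libraries held 13059 and 6828 counts and the P15 libraries 169054 and 94132. Its 7-nt match was in 12 of 2082 P15-only peaks, 4 of them with the 8-nt form, and in the peaks with flanks it was in 7 against 13 and 7 windows. The peaks with the 8-nt form that were chosen for print lie in Rora, in Scamp5, a membrane protein of vesicles, and in Arf5, a small GTPase of vesicle traffic. The 2 called miRNAs that were lower at P15, miR-149-5p and miR-27a-3p, had mean levels of 914 and 183 CPM there.

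None of the other abundant families was called against its flanks, where the few matches of each left room to call only a large excess. The miR-9-5p family averaged 114401 CPM at P15 and had 7 peaks with a match, the miR-125b-5p family 92862 CPM and 13 peaks, and the miR-138-5p family 73601 CPM and 12 peaks. For miR-127-3p, at 38251 CPM, 1 peak had a match, in Tnrc18, which was the 8-nt form. The let-7a-5p family had 8 peaks and the miR-30c-5p family 17, of which 10 had the 8-nt form. In the peaks with flanks the matches were 5 against 2 and 4 windows for let-7a-5p and 12 against 20 and 12 for miR-30c-5p. They were 6 against 6 and 11 for miR-9-5p and 12 against 13 and 9 for miR-125b-5p. For miR-138-5p they were 8 against 10 and 6, and for miR-127-3p 1 against 0 and 0. The families of miR-1983, miR-434-3p and miR-133b-3p had 9, 5 and 11 peaks with a 7-nt match. With flanks these were 7 against 7 and 11 windows, 5 against 2 and 2, and 8 against 5 and 9.

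**Figure D4:**
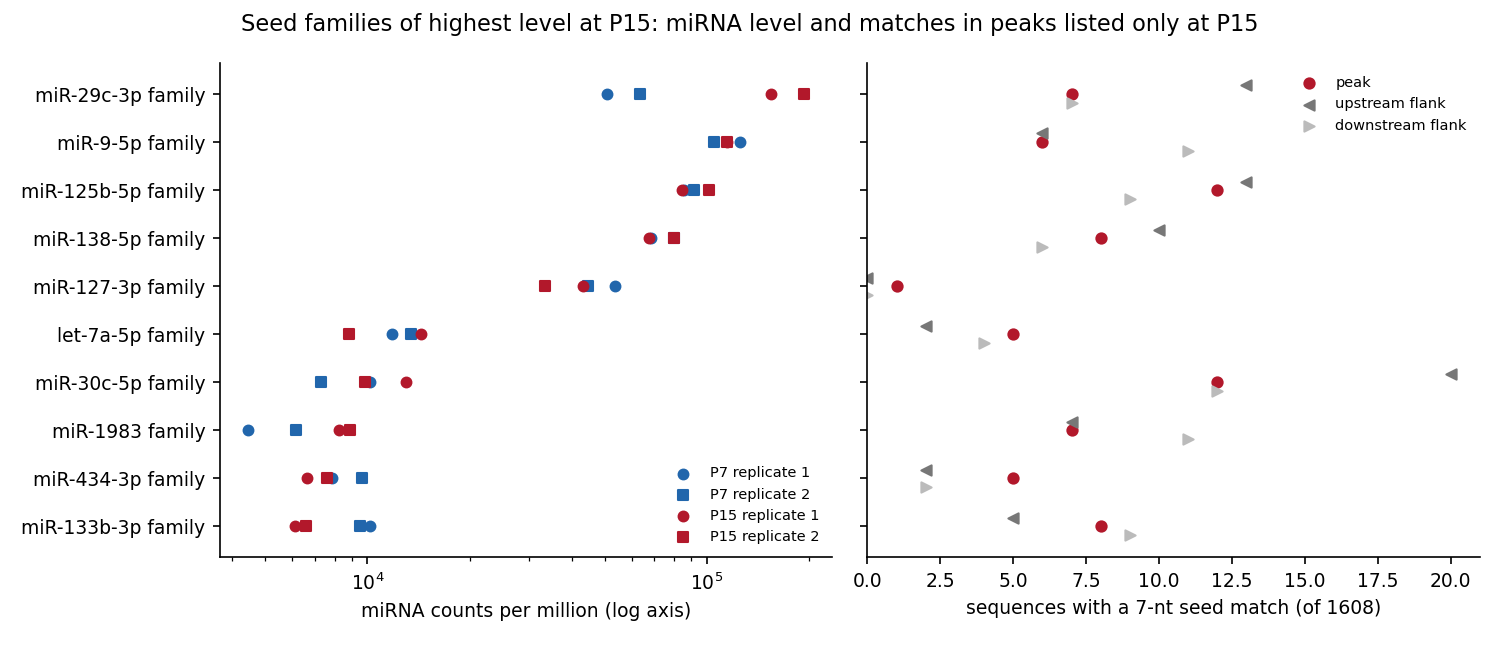
Left, level of the 10 seed families with the highest mean at P15 in each of the 4 miRNA libraries (x axis, CPM, log axis); right, number of P15-only peaks, upstream flanks and downstream flanks of 1608 that hold a 7-nt match to each family. The miR-29c-3p family stands at 154749 and 193473 CPM in the P15 libraries and at 50846 and 63562 CPM in the P7 libraries, and its matches number 7 in peaks against 13 and 7 in flanks.

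A further family was called when the level asked for was lowered to 100 CPM. The match of miR-190a-3p, TATATAG, was in 35 of 1608 peaks against 6 and 3 windows (exact McNemar test, adjusted p = 0.000906). In 27 of the 35 peaks the match followed TG directly, so that the letters TGTATATA of the Pumilio element ran into it, and 30 of the 35 held TGTANATA. miR-190a-3p itself had 460 and 147 CPM at P7, where 3 counts equal 230 and 439 CPM. It had 11.8 and 10.6 CPM at P15, where 3 counts equal 17.7 and 31.9 CPM. Its levels thus rest on few counts at both ages, and so does its passing of the 100 CPM limit.

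P15-only peaks were placed along the whole 3' UTR, with a median near its middle. More of them lay within 200 nt of the transcript end than within 200 nt of the coding sequence. On a scale from 0 at the end of the coding sequence to 1 at the transcript end, their centres had a median of 0.519 (95% order-statistic interval 0.494 to 0.552), against 0.447 (0.384 to 0.510) for shared and 0.378 (0.333 to 0.418) for P7-only peaks. Within 200 nt of the transcript end lay 556 of 2082 (26.7%, 24.8 to 28.7), against 20.6% of shared and 11.8% of P7-only peaks. Within 200 nt of the coding sequence lay 14.7%, 16.7% and 25.9%. Placed on the shortest 3' UTR of equal overlap in place of the longest, the median of the P15-only peaks was 0.618. A coding exon of some transcript overlapped 87 of the 2095 (4.15%), against 3.92% of shared and 15.5% of P7-only peaks. These differences between sets were not tested.

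Widths ran from 15 to 432 nt with a median of 53 and quartiles of 41 and 73, against medians of 64 nt for shared and 50 nt for P7-only peaks. The 5 widest lay in Cdk16 (432 nt), Klf13 (362), Shank3 (323), En2 (280) and Id2 (280). GC content was close to that of the flanks, with medians of 42.5% in the peak and 43.3% in the mean of both flanks, and 743 of 1608 peaks (46.2%) were above their flanks.

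The cut between listed at both ages and listed only at P15 was a matter of a few bases in some cases. A P7 peak lay within 50 nt of 101 P15-only peaks (4.82%) and within 10 nt of 16. The nearest were in Srcin1, where the peaks touched, Stox2 with a gap of 1 nt, and Gpm6b, Mapt and Ubl3 with gaps of 2 nt. On the other side, shared peaks of Ank, Adcy1, Tbc1d16, En2 and Nfic overlapped a P7 peak by 1, 3, 3, 5 and 5 nt. Most P15-only peaks were far from that cut: 855 of 2095 (40.8%) had any P7 peak within 5000 nt.

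Few P15-only peaks overlapped the replicate 2 list, which has 409 3' UTR peaks against 2580 in the P15 list. That size limits the share whatever the agreement of the lists. The replicate 2 list held 159 of the 2095 (7.59%, 6.49 to 8.81). It held 156 of 485 shared peaks (32.2%, 28.0 to 36.5) and 13 of 541 peaks listed only at P7 (interval 1.29 to 4.07%). The rule applied to the replicate 2 list gave 249 peaks in 201 genes.

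Most genes had a single P15-only peak, and a small number had many. 819 of the 1227 genes had 1, 222 had 2 and 186 had 3 or more, and these 186 genes held 832 of the 2095 peaks. A P7 peak was listed somewhere in 546 of the genes (44.5%) and in the 3' UTR of 283 (23.1%), and a P15 peak in a coding exon in 339 (27.6%). No other peak at either age was listed in 562 genes (45.8%).

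The 15 genes with most P15-only peaks had 8 to 17 each. Klf13, a zinc-finger transcription factor, had 17 P15-only peaks in a 3' UTR of 5160 nt, between positions 0.033 and 0.990 of it, beside 5 shared and 3 P7-only peaks. Adcy1, the calcium-stimulated adenylyl cyclase, had 15 beside 27 shared and 7 P7-only peaks. Rims3 had 15 with no 3' UTR peak listed at P7. Bsn, the large scaffold of the presynaptic active zone, had 12 in the 3' UTR and 56 peaks in coding exons at P15, against 21 in coding exons at P7. Cbx6, a Polycomb protein, had 12 and no other peak at either age. Epb41l1, a membrane-skeleton protein, had 10, and Rasl10b, Rora and St8sia5, a sialyltransferase, had 9 each. Ccdc85c, Crtc1, Dab2ip, Kcna2, Lynx1, a modulator of nicotinic receptors, and Nfasc, an adhesion molecule of the axon initial segment, had 8 each, as did Nlgn2, which falls outside the 15 by alphabet. Klf13, Adcy1, Cbx6, Epb41l1, Rasl10b, St8sia5, Ccdc85c, Lynx1 and Nfasc had TGTANATA in none of these peaks.

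**Figure D5:**
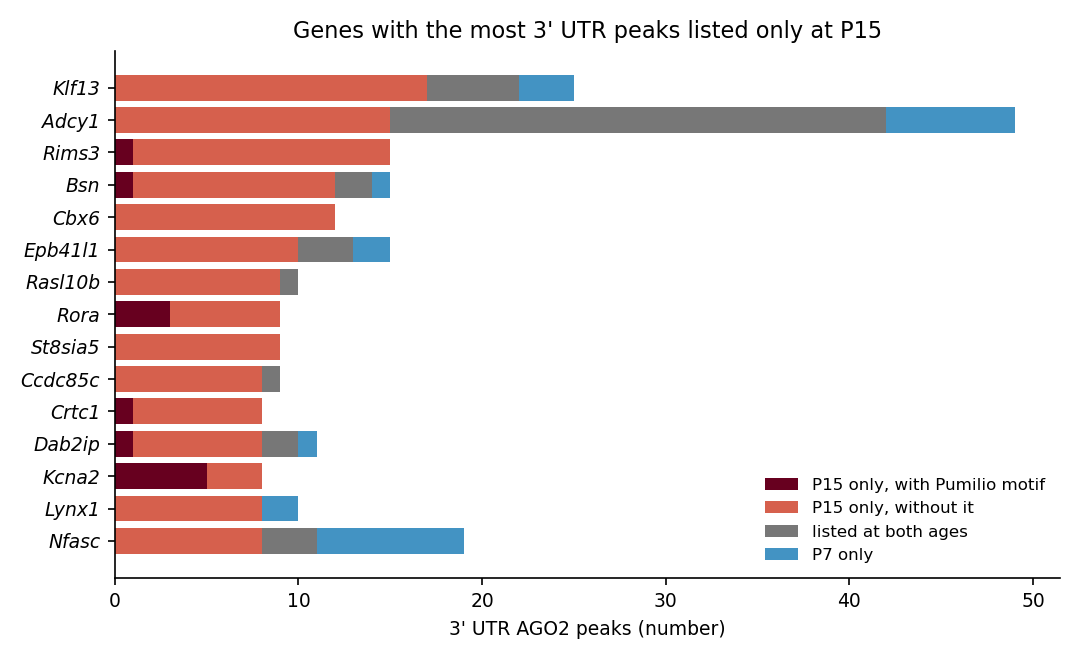
Number of 3' UTR AGO2 peaks (x axis) in the 15 genes with the most peaks listed only at P15, split into P15-only peaks with and without the Pumilio element, peaks listed at both ages and peaks listed only at P7. Adcy1 has 27 peaks listed at both ages, Rims3, Cbx6, Rora, St8sia5, Crtc1 and Kcna2 have P15-only peaks alone in their 3' UTRs, and Kcna2 is the gene with most element-bearing peaks among the 15.

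Genes with no other listed peak included Cbx6 with 12, St8sia5 with 9, Kcna2 with 8 and Rgs7bp, a partner of G-protein regulators, with 6. The replicate 2 list held 0 of the 9 St8sia5 peaks.

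The 4 genes that the study names all had P15-only peaks. They are named by the study that deposited these peak lists, so this number is not separate support. Shank3, a postsynaptic scaffold, had 6, of 63 to 323 nt, spread from 0.0118 to 0.676 of its 3' UTR, with gaps of 50 to 475 nt to the nearest P7 peak. It also had 25 coding exon peaks at P15 and 0 at P7. Its widest P15-only peak, chr15:89558897-89559219, held 7-nt matches of the miR-125b-5p, miR-16-5p and miR-409-5p families, and none of the 6 held TGTANATA. En2 had 6, the farthest of which could not be read as 1 run of a transcript, and TGTANATA was in the peaks at chr5:28171406-28171446 and chr5:28171874-28171913. Vash1, an enzyme that trims tubulin, had 1 of 41 nt at chr12:86691922-86691962, and Prag1, a pseudokinase, had 1 of 59 nt at chr8:36147533-36147591. Neither held the element or a 7-nt match of the 55 families. None of these 14 peaks overlapped the replicate 2 list.

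Rora and Kcna2 show how peaks, elements and seed matches were laid out in single 3' UTRs. The 9 Rora peaks lay in the part from 0.418 to 0.988 of a 3' UTR of 9288 nt. They held TGTANATA 3 times, a match of miR-125b-5p, of miR-30c-5p, of miR-29c-3p, of miR-770-5p and of miR-23a-3p in 1 peak each, and in 3 peaks neither. Of the 8 Kcna2 peaks, 4 lay at 0.969 or beyond on this scale and the rest at 0.135 to 0.711, and 1 peak, at chr3:107106852-107106893, held both the element and a match of miR-434-3p.

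The gene lists are read against 2 backgrounds: the 1227 genes are 5.66% of the 21685 protein-coding genes with a 3' UTR and 50.9% of the 2411 with any listed peak. Median longest 3' UTRs of the 3 lists of firing and synapse genes were 2377 to 2621 nt, against 920 nt over all genes. In the list of ion channels and receptors of firing 17 of 35 genes had P15-only peaks, and 23 had any peak. Among them were Kcna2 with 8, Scn2a, a sodium channel, with 7, and Kcnc1, a fast potassium channel, with 5. Of postsynaptic scaffolds and adhesion molecules 16 of 32 did, of 21 with any peak, led by Nlgn2, the neuroligin of inhibitory synapses, with 8, Shank2 with 7, Shank3 with 6 and Adgrl1, a latrophilin, with 5. Of presynaptic proteins 15 of 32 did, of 26 with any peak, led by Bsn with 12 and Sv2b, a vesicle protein, with 4. A peak with TGTANATA was present in 430 of the 1227 genes in all, and in 6 of the 17 firing genes, 3 of the 16 postsynaptic and 9 of the 15 presynaptic genes.

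In the signalling, structural and regulatory lists other than the miRNA pathway, 34.8% to 52.2% of genes had P15-only peaks. Of their genes with any peak 44.4% to 70.6% did, beside 50.9% over all genes with any peak. Their median longest 3' UTRs were 1862.5 to 2761 nt, against 920 nt over all genes. Of kinases, phosphatases and second messengers 19 of 40 had P15-only peaks, of 29 with any peak. They were led by Adcy1, with 3 each in Camk2b, Gsk3b and Plcb4. Of dendrite, axon and cytoskeleton genes 22 of 52 did, of 40 with any peak, led by Srcin1 with 4. Of chromatin regulators and transcription factors 16 of 46 did, of 36 with any peak. Of ubiquitin and turnover genes 12 of 23 did, of 17 with any peak, led by Fbxl16 with 4. Of RNA-binding proteins 14 of 34 did, of 23 with any peak. Among them were Qk with 5 and Pum2, itself a Pumilio protein, with 4, of which 1 held TGTANATA. Of the miRNA pathway list 1 of 21 did, Tnrc6b with 1 peak, where 6 had any peak. A peak with the element was present in 3 of the 19 kinase genes, 3 of the 22 cytoskeleton, 8 of the 16 chromatin, 4 of the 12 ubiquitin, 5 of the 14 RNA-binding and 0 of the 1 miRNA pathway genes with P15-only peaks. No test was made of any list.

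Genes listed as markers of PCs and of other cerebellar cells were both present. Of 26 genes listed as PC markers 12 had P15-only peaks and 16 had any peak. They were led by Rora with 9, Kcna2 with 8, the calcium-release channel Itpr1 with 4 and Homer3 with 3. The lists are not exclusive. Kcna2 is also counted among the firing genes and Rora among the transcription factors, and Pvalb is in both the PC and the interneuron list. A listed gene thus does not assign its peaks to a cell type. Of 21 granule cell markers 11 had P15-only peaks and 18 had any peak, led by Cntn2 with 5 and Gabra6 with 4, and 3 of the 4 Gabra6 peaks were also in the replicate 2 list. Of 12 markers of Bergmann glia and astrocytes 5 had P15-only peaks and 10 had any peak, led by Slc1a2 with 3. Of 12 oligodendrocyte markers 3 had P15-only peaks and 4 had any peak, among them Mbp and Olig1 with 2 P15-only peaks each. Of 8 interneuron markers 1 had P15-only peaks, Kit, which was also the 1 with any peak. Of 10 microglial and vascular markers 0 did and 0 had any peak. A peak with TGTANATA was present in 3 of the 12 PC, 3 of the 11 granule cell, 1 of the 5 glial, 0 of the 3 oligodendrocyte and 1 of the 1 interneuron marker genes with P15-only peaks. The lists count peaks and not levels, and the part of cells other than PCs in the P15-only peaks was not tested.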

How the data were processed

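The authors deposited BED peak lists for P7 and P15, whose score column is 0 in every row, and raw counts per mature miRNA for each of 4 miRNA libraries, with totals of 13059 and 6828 at P7 and 169054 and 94132 at P15. The submitters' processing notes name build mm10 and the tools STAR 2.5.2a, Bowtie2 2.4.2, cutadapt 2.10, deepTools 3.1.3, DESeq2 1.36.0 and UMI-tools, without their roles. The peak caller, its settings and any pooling of replicates were not given in the sources used here. By file name the counts are not collapsed by molecular identifier. Intervals and floors cover counting error only.

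Peaks were placed on GENCODE M21 3' UTRs (stop codon included), on the transcript with the largest overlap and then the longest 3' UTR. Sequence was read from the spliced transcript. Words of 6 nt, 13 motifs and 7-nt seed matches were tested by an exact two-sided McNemar test against both flanks. The threshold was 0.05 after Benjamini-Hochberg adjustment. The larger p of the 2 sides was taken, and features not on the same side of both flanks were given the highest possible p. Counts were tested with edgeR 4.0.16 (quasi-likelihood, TMM, filterByExpr) in R 4.3.3, with DESeq2 1.42.0 as an alternative. With 2 libraries per age and no statement on animals, its p-values measure only the spread between these libraries. Python 3.11.15 and scipy 1.17.1 were used. The word and count tests were tried on simulated data.

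The peaks and gene lists were chosen with earlier results of these data known. The text names the 15 genes with most P15-only peaks, up to 4 genes a list, the study's 4 genes, the 10 called words of smallest p in each direction, the 10 most abundant families, up to 8 peaks with TGTANATA in the genes with most peaks, up to 3 peaks a family, the 5 widest peaks, the 5 nearest and 5 least overlapping, and the 5 leading genes with no other peak. Others are marked as named after their values were seen. Some genes that this rule names are not reported here. Alternatives changed the flanks, widths, word and site lengths, overlap rules, list, filter and scaling, and left out each miRNA library. Sequence tests on peaks of the replicate 2 list, and leaving out members with a P7 peak within 50 nt there, were added after seeing the data.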

Additional observations from a re-analysis of the deposited data

How the results depend on the processing

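TGTANATA stayed called, with adjusted p from 2.78e-90 to 1.13e-05, under all 11 alternatives of the exact McNemar test, and its excess over the mean of the flanks ran from 13.2 to 27.3 percentage points. The number of called 6-nt words was 46, and it was 75 against the upstream flank alone and 0 among the 106 members in the replicate 2 list and 0 among the 185 peaks of the replicate 2 list, where fewer peaks were tested. Called motifs were 2 in place of 1 against the upstream flank alone (AATAAA added) and with peaks extended by 10 nt (TGGAAT added). Called seed families were 1 in place of 0 at 100 CPM. Taken from the replicate 2 list, the members were 249 and the genes 201. The median position on the shortest 3' UTR was 0.618, the share in the replicate 2 list when the overlap had to cover 50% or more of the peak was 5.25%, and 80 of 393 list genes had at least 2 members, where 159 had at least 1.

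For the miRNAs, 5 were called, and 16 with no filter, 22 at a mean of 10 CPM or more and 16 by DESeq2; the cause was not tested. Leaving out 1 library each gave 5 to 23, with 23 without either P7 library and 10 without P15 replicate 1, where the lone library is assumed to vary like those of the other age. With the replicate block 10 were called, 6 higher and 4 lower. The labels give the libraries only a shared number, and same-numbered libraries had a correlation of deviations of -0.0959 over 159 miRNAs. The 3 miR-29 members kept their call under all 9 alternatives, and miR-27a-3p lost it under 3. The P7 totals limit what can be called there.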
